A study of Saccharomyces cerevisiae with 164 samples.

Results

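Yeast cells whose every histone H3 carried arginine in place of lysine 14 were compared here with cells whose every H3 carried arginine in place of lysine 56, a tail site set against a core site. The comparison rests on 6 of the 164 libraries of the series: the 3'-end libraries of sequencing batch 11 from symmetric K14R (replicates 3, 4 and 5) and symmetric K56R (replicates 3, 4 and 5), chosen by their labels and not by any measured value. Among the gene groups examined, 26 of 52 stress-induced, 11 of 34 glucose-repressed and 11 of 40 nitrogen-use genes were lower in K14R than in K56R, and none was higher. Of 23 glycolytic and fermentation genes 7 were higher and 3 lower, and of 57 large-subunit ribosome-assembly genes 8 were higher and none lower. Of 28 iron and copper genes 4 were higher and 1 lower. Over all 4961 genes tested, 2.42% were higher and 5.56% lower in K14R. The large-subunit count ranged from 0 to 5 when any one library was left out.

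All strains were MATa haploids in which both chromosomal pairs of H3 and H4 genes had been deleted, so that H3 came from 2 centromeric plasmids. The plasmid marked with TRP1 carried H3 with L127A and L131V, and the one marked with LEU2 carried H3 with L110I, A111W and L131I, changes that steer the 2 forms into mixed pairs. Symmetric K14R carried the lysine 14 substitution on both plasmids (P105 and P106), symmetric K56R carried the lysine 56 substitution on both (P129 and P130), and the asymmetric strains (6 libraries each of K14R and K56R) carried it on either plasmid alone. The pseudo-wild-type (6 libraries) carried the pairing changes and neither substitution. Every strain was also HIS3+ and carried mutant chromosomal alleles of LEU2, of URA3 (ura3-62) and of TRP1, and cells were grown in rich glucose medium (YEPD) to mid-log phase. The libraries of a strain carried 1 strain number, and nothing in the labels says that they came from separate transformants, so p-values measure only the spread between these samples, and a change private to one strain cannot be told apart from the substitution.

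Lysine 14 lies in the flexible H3 tail and is acetylated by Gcn5 within SAGA and by Sas3 within NuA3, a mark of active promoters that bromodomain proteins of the RSC remodeller can bind. Lysine 56 lies at the DNA entry and exit point of the nucleosome core. It is acetylated on newly made H3 by Rtt109 with the chaperone Asf1 before deposition and deacetylated by Hst3 and Hst4, and it is known for roles in chromatin assembly, DNA damage tolerance and histone turnover at promoters. An arginine keeps the positive charge of lysine and cannot be acetylated. The 2 stretches below place both lysines in the coding sequence of HHT2, one of the H3 genes (RefSeq R64, the codon in capitals, 45 bases each, minus strand), with residues counted without the first methionine. They come from the reference genome; the plasmid sequences were not used here.
HHT2 lysine 14 (chrXIV:575985-576029): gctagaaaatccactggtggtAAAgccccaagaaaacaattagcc
HHT2 lysine 56 (chrXIV:575859-575903): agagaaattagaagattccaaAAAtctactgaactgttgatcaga

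Total counts ran from 2526269 to 2909676 in the K14R libraries, from 2277062 to 2397023 in the K56R libraries and from 1656259 to 2828086 in the pseudo-wild-type libraries. HHT1 and HHF1 had 0 counts in all 12 of these libraries, although the labels put HHF1 on the LEU2 plasmid of the mutants (HHF2 on that of the pseudo-wild-type, and HHT2 at the matching place of the TRP1 plasmid), and the codons themselves cannot be read from counts, so the substitutions were not checked here. Replicates 3 and 4 of K56R differed least of all pairs of the batch (chi-square per degree of freedom 1.59), against 2.42 to 3.82 for the other pairs within K14R and within K56R. Pairs of symmetric K18R libraries differed by 12.1, 43.3 and 72.4 on the same measure. On chromosome X left of position 540000, the median gene stood at -0.03 to 0 log2 units from the batch median in K14R libraries and at 0.19 to 0.22 in K56R libraries, a stretch of the chromosome that was higher as a whole in K56R. Genes on chromosome X are marked as such below, and their values carry that shift. The counting features of chromosome X from position 130000 on also lay a median of 331 bases (plus strand) and 271.2 bases (minus strand) from the R64 genes, against 22.5 and -17.0 bases on the other chromosomes, so levels there may cover other parts of the transcripts. The a-specific markers of MATa cells were present: STE2, the alpha-factor receptor, averaged 158 CPM in K14R, 173 CPM in K56R and 230 CPM in the pseudo-wild-type. Of the alpha-specific markers tested, MF(ALPHA)1 was near 0 (means of 1.59, 3.19 and 1.67 CPM in the same order), SAG1 (on chromosome X) stood at 58.6, 66.2 and 65.4 CPM, and STE3, the a-factor receptor, averaged 22.7, 43.9 and 36.4 CPM.

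Of 4961 genes tested, 396 differed between symmetric K14R and symmetric K56R at an adjusted p under 0.05 (edgeR quasi-likelihood test, Benjamini-Hochberg over all genes), which is 7.98% of them. K14R was higher for 120 genes (2.42%) and lower for 276 (5.56%), with median log2 fold changes of 0.48 and -0.64. Here and below, rises and falls are of K14R relative to K56R, and not relative to the pseudo-wild-type. The 3 K14R and 3 K56R libraries did not overlap for 2044 genes (41.2%), so that lack of overlap at a single gene is common here and is given below only as a description. Of named genes averaging 5 CPM or more in these 6 libraries, the largest falls with no overlap were in NDE2 (log2 fold change -1.61), an external mitochondrial NADH dehydrogenase, SNA3 on chromosome X (-1.48), a membrane protein of the vacuolar sorting path, FBP1, GPG1, COX26 and SOL4. By the same rule the largest rises were in FRE5 (1.31), KAR1 (1.02), a spindle pole body protein, FIT2, ESF1, SAS3 and NOP7. Counts depended on the number of libraries: without K14R replicates 3, 4 or 5 the test called 200, 259 or 174 genes, and without K56R replicates 3, 4 or 5 it called 196, 233 or 213. With K56R replicates 3 and 4 summed into 1 library it called 213. Of the genes just named, COX26, KAR1, ESF1, SAS3 and NOP7 were not among those. COX26 leaned on K56R replicate 5, at 27.5 CPM against 11.8 and 10.4 CPM in replicates 3 and 4.

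**Figure D1:**
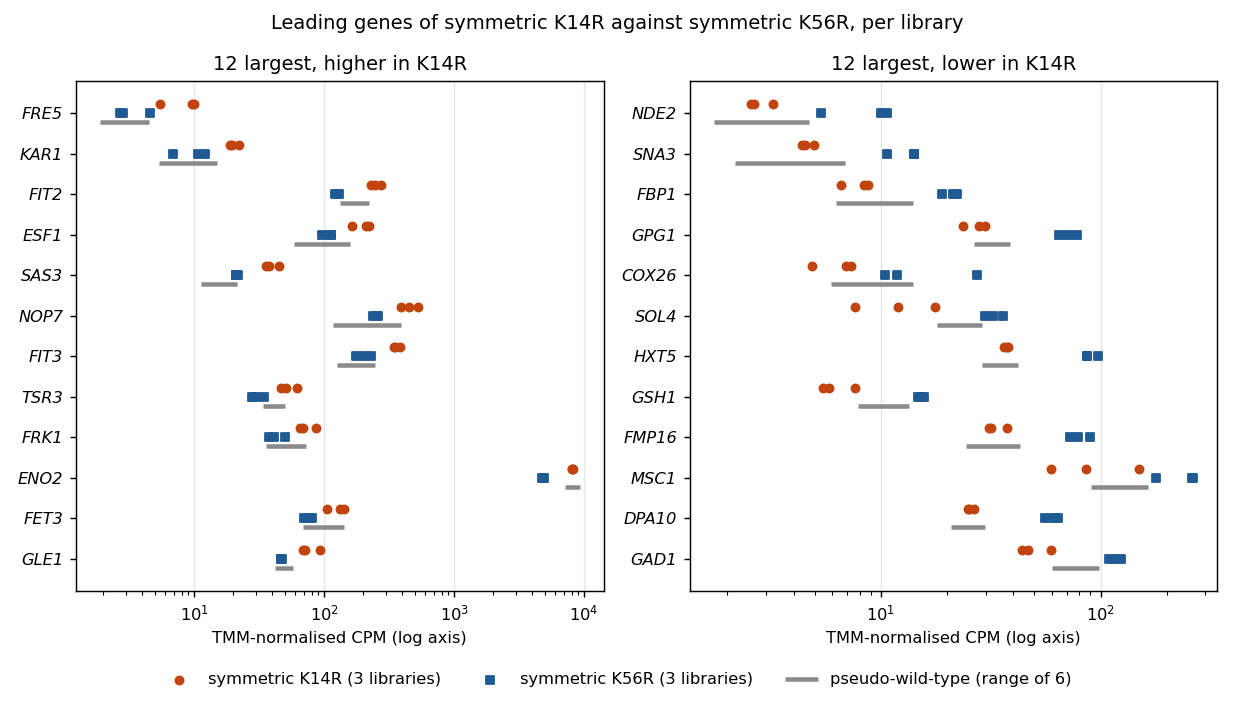
Expression (CPM, log axis) of the named genes with the largest fold changes in each symmetric K14R, symmetric K56R and pseudo-wild-type library; points are mutant libraries and bars the range of the 6 pseudo-wild-type libraries. The K14R and K56R points of each gene do not overlap, as the rule for naming them requires; for HXT5, FMP16 and DPA10 the K14R points lie within the pseudo-wild-type range and the K56R points above it.

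Genes that glucose represses and that serve growth on other carbon sources were lower in K14R. Of 34 tested, 11 fell and none rose (32.4% called, against 7.98% of all genes). The median log2 fold change was -0.44, against 0.01 over all genes. FBP1 (YLR377C, chrXII:873746-874792, minus strand), the fructose-1,6-bisphosphatase of gluconeogenesis, stood at 6.61, 8.37 and 8.75 CPM in the K14R libraries, against 22.1, 18.9 and 21.4 CPM in the K56R libraries (7.91 ± 1.14 and 20.8 ± 1.69, SD, n = 3 each; log2 fold change -1.39 ± 0.22, SE; edgeR adjusted p = 0.00013). Every K14R library lay below every K56R library, and the pseudo-wild-type ranged from 6.24 to 14 CPM. HXT5 (YHR096C, chrVIII:294669-296447, minus strand), a hexose transporter of slow-growing and stressed cells, stood at 37.7, 38.0 and 36.4 CPM in K14R, against 87.1, 86.7 and 97.9 CPM in K56R (log2 fold change -1.28 ± 0.15, edgeR adjusted p = 6.06e-06). Its pseudo-wild-type libraries ranged from 28.8 to 42.1 CPM, so the K14R libraries lay inside that range and the K56R libraries above it. The other members that fell were CYB2, the lactate dehydrogenase (-1.10), the peroxisomal thiolase POT1 (-1.18), the malate synthase MLS1 (-0.67), the carnitine acetyltransferase CAT2 (-0.88), the fatty acid activating enzyme FAA2 (-0.50), the proline-degrading PUT1 (-0.75) and PUT2 (-0.87), and, on chromosome X, the succinate-fumarate carrier SFC1 (-1.04) and the activator SIP4 (-0.98). Against the pseudo-wild-type, the median of the list was 0 in K14R and 0.43 in K56R. Of 14 hexose transport and sensing genes, 3 fell and none rose (21.4% called): HXT5, the transporter HXT8 on chromosome X (-0.83) and the repressor MIG3 (-0.59).

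The 2 enolases, which catalyse the same glycolytic step, moved in opposite directions. ENO2 (YHR174W, chrVIII:451327-452640, plus strand), the form made on glucose, stood at 8150, 8120 and 8050 CPM in K14R, against 4810, 4880 and 4730 CPM in K56R (log2 fold change 0.75 ± 0.12, edgeR adjusted p = 0.00013). ENO1 (YGR254W, chrVII:1000927-1002240, plus strand), the form less tied to glucose, stood at 361, 329 and 382 CPM in K14R, against 620, 596 and 726 CPM in K56R (log2 fold change -0.86 ± 0.13, edgeR adjusted p = 0.000102). Neither gene had overlapping libraries. The coding sequences of the pair are close copies, and how reads that match both were assigned is not given in the sources used here. In the pseudo-wild-type, ENO2 ranged from 7100 to 9240 CPM, which holds the K14R libraries, and ENO1 from 415 to 616 CPM, above the K14R libraries and overlapping the lowest K56R library.

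Across glycolysis and fermentation, 7 of 23 genes rose and 3 fell (median log2 fold change 0.23). That is 43.5% called, against 7.98% of all genes. The members that rose were ENO2, the aldolase FBA1 (0.50), the triose phosphate isomerase TPI1 (0.34), the dehydrogenase TDH3 (0.43), the pyruvate kinase CDC19 (0.37), the alcohol dehydrogenase ADH1 (0.56) and the acetaldehyde dehydrogenase ALD6 (0.66). TDH3 averaged 23900 CPM in K14R and 17800 CPM in K56R. Other abundant enzymes did not pass: the pyruvate decarboxylase PDC1 was at 0.34 (edgeR adjusted p = 0.0509), the phosphoglycerate mutase GPM1 at 0.26 (edgeR adjusted p = 0.301) and the phosphoglycerate kinase PGK1 at 0.02 (edgeR adjusted p = 0.946). Besides ENO1, the members that fell were the glycerol-forming GPD1 (-0.80) and, on chromosome X, TDH1 (-0.74), the minor glyceraldehyde-3-phosphate dehydrogenase. Against the pseudo-wild-type, the list's median was -0.20 in K14R and -0.44 in K56R. Without any one of the 6 libraries, 4 to 6 members rose and the same number, 3, fell.

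Stress-induced genes formed the largest group that was lower in K14R. Of 52 tested, 26 fell and none rose (50.0% called, against 7.98% of all genes), with a median log2 fold change of -0.55. GAD1 (YMR250W, chrXIII:770801-772558, plus strand), the glutamate decarboxylase, stood at 46.6, 59.2 and 44.1 CPM in K14R, against 124, 117 and 109 CPM in K56R (log2 fold change -1.22 ± 0.18, edgeR adjusted p = 7.13e-05). FMP16 (YDR070C, chrIV:588098-588379, minus strand), a small mitochondrial protein induced by stress, stood at 31.7, 37.7 and 31.0 CPM in K14R, against 78.8, 89.5 and 72.7 CPM in K56R (-1.26 ± 0.20, edgeR adjusted p = 0.000121). PRX1, the mitochondrial peroxiredoxin, stood at 185, 181 and 159 CPM in K14R, against 285, 296 and 324 CPM in K56R (-0.79 ± 0.11, edgeR adjusted p = 2.48e-05). In all 3 genes the K14R and K56R libraries stood apart, and PRX1 had the smallest p of the list. Other members that fell were the cytosolic catalase CTT1 (-0.71), the small heat shock protein HSP26 (-0.57), the carboxypeptidase Y inhibitor TFS1 (-1.15), the proteinase A inhibitor PAI3 (-1.21), the 6-phosphogluconolactonase SOL4 (-1.38), the outer mitochondrial membrane protein OM45 (-1.12), the aldehyde dehydrogenases ALD2 (-1.0) and ALD3 (-0.98), and DDR2 (-1.10), a stress-induced gene of unknown role that averaged 175 ± 31.5 CPM in K14R and 377 ± 49.4 CPM in K56R (SD, n = 3 each). HSP26 ranged from 143 to 211 CPM in the pseudo-wild-type, below all libraries of both mutants. Against the pseudo-wild-type, 3 members of the list were called higher and 19 lower in K14R. The list's median against the pseudo-wild-type was -0.34 in K14R and 0.31 in K56R. Leaving out 1 library left 17 to 24 members lower, with 17 without K14R replicate 5.

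Promoters of the stress-induced list were searched for AGGGG on either strand, the core of the stress response element that Msn2 and Msn4 bind, in the 500 bases before each start codon. The letters occurred in 84.6% of the 52 windows, in 51.8% of the windows of the 276 genes lower in K14R, in 24.2% of those of the 120 genes higher in K14R and in 34.3% of all 4960 windows. A match is a description of the sequence and was not tested as a binding site. The 120 bases shown for GAD1 and FMP16 (RefSeq R64, read along the gene's strand) carry the match in capitals, AGGGG in GAD1 and its reverse complement CCCCT in FMP16, and stand for the group because both genes fell in symmetric and asymmetric K14R.
GAD1 promoter (chrXIII:770580-770699): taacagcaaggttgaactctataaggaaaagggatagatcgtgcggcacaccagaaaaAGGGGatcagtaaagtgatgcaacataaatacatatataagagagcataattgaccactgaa
FMP16 promoter (chrIV:588519-588638): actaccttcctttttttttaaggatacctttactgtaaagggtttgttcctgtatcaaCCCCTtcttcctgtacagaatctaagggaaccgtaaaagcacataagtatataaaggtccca

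Carbohydrate storage genes were also lower in K14R. Of 16 trehalose and glycogen genes, 6 fell and 1 rose (43.8% called, median log2 fold change -0.39). The members that fell were the neutral trehalase NTH1 (-0.57), the glycogen synthase GSY2 (-0.56), the branching enzyme GLC3 (-0.60), the debranching enzyme GDB1 (-0.63), the trehalose phosphate synthase TPS1 (-0.64) and the phosphoglucomutase PGM2 (-0.49), while its paralog PGM1 rose (0.37). NTH1, for example, stood at 200, 199 and 167 CPM in K14R, against 297, 275 and 268 CPM in K56R. Without 1 library, between 3 and 7 members of the list fell. In the respiratory chain and the citric acid cycle, 5 of 44 fell and none rose (11.4% called, against 7.98% of all genes and 5.56% for the lower direction): NDE2, the dehydrogenase subunits KGD2 (-0.42) and SDH1 (-0.39), the fumarase FUM1 (-0.49) and the malate dehydrogenase MDH1 (-0.41). That list's median was -0.17, and 1 or 2 of its members fell when any one library was left out.

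Nitrogen metabolism was lower in K14R at several steps. Of 40 genes of ammonium, glutamate and nitrogen use, 11 fell and none rose (median -0.16). That is 27.5% called, against 7.98% of all genes and 5.56% for the lower direction. GDH1 (YOR375C, chrXV:1041678-1043042, minus strand), the main NADP-dependent glutamate dehydrogenase that assimilates ammonium, stood at 122, 108 and 116 CPM in K14R, against 215, 223 and 231 CPM in K56R (log2 fold change -0.95 ± 0.11, edgeR adjusted p = 3.68e-06). The pseudo-wild-type libraries ranged from 198 to 249 CPM, so here the K56R libraries lay within that range and the K14R libraries below it. Both genes of proline breakdown fell, PUT1 (150 ± 12.5 CPM in K14R and 252 ± 32.4 CPM in K56R, SD, n = 3 each) and PUT2 (61.5 ± 6.28 CPM and 113 ± 9.82 CPM), as did the GABA transaminase UGA1 (-0.93), the GABA permease UGA4 (-1.93, at means of 1.36 CPM in K14R and 5.27 CPM in K56R), the glutamate synthase GLT1 (-0.34), the ammonium permease MEP1 (-0.59), the allantoin permease DAL4 (-0.74), the amino acid permease TAT1 (-0.45), and the arginine-degrading CAR1 (-0.35) and CAR2 (-0.46). PUT1 ranged from 100 to 126 CPM in the pseudo-wild-type, below all libraries of both mutants. Against the pseudo-wild-type, 6 members of the list were called higher and 13 lower in K14R. Without any one library, 6 or 7 members of the list fell.

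Among 53 amino acid synthesis genes, 7 fell and 2 rose, and the list's median was -0.14. Over all genes tested, 7.98% were called, with 5.56% lower and 2.42% higher. Arginine synthesis gave 3 of those that fell: ARG4 (-0.60), ARG7 (-0.52) and, on chromosome X, ARG3 (-0.74). ARG4, the argininosuccinate lyase, stood at 161, 160 and 158 CPM in K14R, against 240, 225 and 257 CPM in K56R, with no overlap. LYS1, ARO4, HOM2 and ILV5, of lysine, aromatic, threonine-methionine and branched-chain synthesis, fell by 0.53, 0.37, 0.38 and 0.33 on the log2 scale, and PRO2 (0.41), of proline synthesis, and ARO9 (0.35), an aromatic aminotransferase, rose. Without any one library, between 2 and 4 members of the list fell and between 0 and 2 rose.

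Sulfur, biotin and NAD genes followed the same direction. Of 31 sulfur assimilation genes, 5 fell and none rose (16.1% called, against 7.98% of all genes). Those that fell were MET17, MET10 (-0.41), MET16 (-0.76), MET6 (-0.39) and the sulfate permease SUL2 (-0.61). MET17 (YLR303W, chrXII:732542-733876, plus strand), the sulfhydrylase that fixes sulfide into homocysteine, stood at 199, 199 and 189 CPM in K14R, against 358, 352 and 381 CPM in K56R (log2 fold change -0.89 ± 0.14, edgeR adjusted p = 0.000103). It was the member with the smallest p, and only 1 or 2 members of the list passed when any one library was left out. Of 17 biotin and NAD genes, 4 fell and none rose (23.5% called): BIO2, BIO3 (-0.44), the quinolinate transferase BNA6 (-0.70) and the nicotinamidase PNC1 (-0.79). BIO2 (YGR286C, chrVII:1063813-1064940, minus strand), the biotin synthase, stood at 68.8, 64 and 66.3 CPM in K14R, against 128, 124 and 126 CPM in K56R (-0.93 ± 0.18, edgeR adjusted p = 0.00112). The pseudo-wild-type ranged from 99.5 to 156 CPM, around the K56R libraries. PNC1 is also a member of the stress-induced list.

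The neighbouring acid phosphatase genes PHO5 and PHO3 moved in opposite directions. PHO5 (YBR093C, chrII:429548-430951, minus strand), the phosphate-repressed form whose promoter nucleosomes are a textbook case of chromatin control, stood at 169, 190 and 159 CPM in K14R, against 333, 352 and 394 CPM in K56R (log2 fold change -1.06 ± 0.16, edgeR adjusted p = 7.13e-05). PHO3 (YBR092C, chrII:427698-429101, minus strand), the constitutive form, stood at 2190, 2200 and 2160 CPM in K14R, against 1550, 1550 and 1510 CPM in K56R (0.51 ± 0.09, edgeR adjusted p = 0.000371). The libraries did not overlap at either gene, and the pair are close copies, so that reads matching both are a further uncertainty. The pseudo-wild-type ranged from 170 to 270 CPM for PHO5 and from 2420 to 2770 CPM for PHO3, so PHO3 was below it in both mutants. Over the 24 phosphate genes tested, 4 fell and 1 rose (20.8% called, against 7.98% of all genes). Besides PHO5, those that fell were the vacuolar phosphatase PHO8 (-0.70), the sodium-phosphate transporter PHO89 (-0.66) and, on chromosome X, PHO86 (-0.27), which helps transporters leave the endoplasmic reticulum.

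Genes of iron uptake were among the largest rises in K14R, although the iron and copper list as a whole stood near 0. Of 28 tested, 4 rose and 1 fell (17.9% called, against 7.98% of all genes), with a median log2 fold change of -0.05. FIT2 (YOR382W, chrXV:1059531-1059992, plus strand), a cell wall mannoprotein that holds siderophore-bound iron, stood at 228, 274 and 247 CPM in K14R, against 121, 128 and 129 CPM in K56R (log2 fold change 0.99 ± 0.20, edgeR adjusted p = 0.00219). Its neighbour and relative FIT3 (YOR383C, chrXV:1060441-1061055, minus strand) stood at 344, 383 and 351 CPM in K14R, against 204, 177 and 228 CPM in K56R (0.82 ± 0.17, edgeR adjusted p = 0.00231). In both genes all K14R libraries lay above all K56R libraries, and the pseudo-wild-type ranged from 133 to 221 CPM for FIT2 and from 125 to 246 CPM for FIT3. FRE5, a ferric reductase relative next to FIT3 on chromosome XV, averaged 8.34 ± 2.5 CPM in K14R and 3.35 ± 1.05 CPM in K56R (SD, n = 3 each; log2 fold change 1.31), so 3 of the 4 genes that rose are adjacent. The 4th, the iron oxidase FET3 (0.74), lies on chromosome XIII. The member that fell was the haem oxygenase HMX1 (-0.67), and 2 or 3 members rose when any one library was left out.

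The letters GCACCC, the core that the iron regulator Aft1 binds, were searched on both strands in the 500 bases before each start codon. They occurred in 75.0% of the windows of the iron and copper list, in 6.67% of those of the 120 genes higher in K14R, in 11.2% of those of the 276 genes lower in K14R and in 7.34% of all windows. The 120 bases shown carry 3 matches each in capitals, GCACCC or its reverse complement GGGTGC. In FIT2 the last match runs into cccct, the stress response letters on the other strand, left in lower case.
FIT2 promoter (chrXV:1059184-1059303): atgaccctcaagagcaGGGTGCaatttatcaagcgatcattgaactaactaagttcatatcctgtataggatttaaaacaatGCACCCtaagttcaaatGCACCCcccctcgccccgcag
FIT3 promoter (chrXV:1061234-1061353): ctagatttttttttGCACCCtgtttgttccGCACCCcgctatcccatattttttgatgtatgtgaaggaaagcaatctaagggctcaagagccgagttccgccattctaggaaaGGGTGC

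Ribosome-assembly genes were mostly above 0, though few passed the test. Of 57 large-subunit assembly genes, 8 rose and none fell (median log2 fold change 0.42), and 35 had an unadjusted p under 0.05 in that direction. Over all genes tested, 7.98% were called and 2.42% rose. NOP7 (YGR103W, chrVII:695417-697234, plus strand), which acts in maturation of the large-subunit RNA, stood at 453, 388 and 523 CPM in K14R, against 255, 261 and 239 CPM in K56R (log2 fold change 0.85 ± 0.26, edgeR adjusted p = 0.040). The groups did not overlap, but the pseudo-wild-type libraries ranged from 116 to 388 CPM and so reached across the K56R values and up to the level of the lowest K14R library. The others that rose were EBP2 (0.72), NOP13 (0.63), SSF1 (0.53), RLP7 (0.49), BRX1 (0.47), RRP1 (0.47) and NSA1 (0.40). Of 49 genes of the small-subunit processome, which cleaves and folds the precursor of the small-subunit RNA, 5 rose and 2 fell (14.3% called, median 0.30). UTP23 (0.51), the box C/D snoRNP core NOP56 (0.50), IMP3 (0.56), UTP11 (0.67) and the helicase FAL1 (0.69) rose, and UTP10 (-0.38) and UTP18 (-0.48), both on chromosome X, fell. ESF1, a nucleolar protein of the same process outside the lists, stood at 208, 165 and 222 CPM in K14R, against 112, 112 and 96.4 CPM in K56R (0.89 ± 0.25, edgeR adjusted p = 0.027). Of 24 genes of RNA polymerases I and III, none passed, with 8 higher and 1 lower at an unadjusted p under 0.05 in edgeR and 1 higher in DESeq2.

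These ribosome-assembly counts changed with the processing. Without K14R replicate 5, no large-subunit gene passed, and without any one of the other 5 libraries 1 to 5 did. In the small-subunit processome, 0 to 3 rose under the same omissions. In a fit that also held 2 slopes per library, of expression on coding length and on A content, described further on, 3 large-subunit genes rose and the list's median was 0.15, while in the small-subunit processome 2 rose and 2 fell with a median of 0.07. The part of library composition in these genes was not tested beyond that fit.

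Ribosome-assembly promoters are known for the PAC and RRPE elements. GATGAG (PAC, either strand) occurred in 89.5% of the large-subunit and 87.8% of the small-subunit windows, in 41.7% of the windows of the 120 genes higher in K14R and in 28.7% of all windows. AAAAATTTT (RRPE, either strand) occurred in 73.7%, 63.3%, 19.2% and 10.4% of the same sets. The 120 bases of the NOP7 promoter hold both, in capitals, with 3 copies of GATGAG that overlap at their ends and 2 of the RRPE letters, of which the first is on the other strand.
NOP7 promoter (chrVII:695208-695327): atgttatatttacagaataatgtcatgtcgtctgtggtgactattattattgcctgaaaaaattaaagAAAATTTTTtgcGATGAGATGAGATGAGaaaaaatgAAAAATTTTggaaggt

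Chromatin genes that rose in K14R included a lysine 14 acetyltransferase. SAS3 (YBL052C, chrII:119379-121874, minus strand), the catalytic subunit of NuA3, stood at 35.4, 37.7 and 45.2 CPM in K14R, against 20.9, 21.7 and 21 CPM in K56R (log2 fold change 0.89 ± 0.26, edgeR adjusted p = 0.029). Its pseudo-wild-type libraries ranged from 11.3 to 21.3 CPM, below all K14R libraries. SAS3 did not pass in the asymmetric comparison (0.44, edgeR adjusted p = 0.138). It also did not pass with the 2 slopes per library described further on (0.44, edgeR adjusted p = 0.162). Its full-length log2 fold change had the opposite sign (-0.63, edgeR adjusted p = 0.491). Of 53 genes of lysine 14 acetylation, its erasers and its readers, 3 rose and none fell, the other 2 being the Elongator subunit ELP2 (0.42) and the RSC subunit RSC8 (0.32). These are 5.66% of the list, against 7.98% of all genes and 2.42% for the higher direction. Between 0 and 2 members rose when any one library was left out, and none did with K56R replicates 3 and 4 summed. Of 23 genes of the lysine 56 acetylation cycle and its histone chaperones, none passed in edgeR or DESeq2, 1 was higher and 1 lower at an unadjusted p under 0.05, and the median was 0.04. Among 7 genes of H2A, H2B and variant histones, only HTB2, an H2B gene, passed (225 ± 8.35 CPM in K14R and 177 ± 1.36 CPM in K56R, SD, n = 3 each; log2 fold change 0.35). SAS2, the catalytic subunit of the H4 lysine 16 acetyltransferase SAS, was the 1 member of 18 silencing genes that passed (0.69), which is 5.56% of that list. It was at -0.07 in the asymmetric comparison (edgeR adjusted p = 0.823).

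Cell wall genes moved in both directions. Of 44 tested, 6 rose and 4 fell (22.7% called, median 0.03). The transglycosylases UTR2 (0.64) and CRH1 (0.43), which link chitin to glucan, rose with the mannose donor enzyme PSA1 (0.55), the glucanosyltransferase GAS1 (0.39) and the mannoproteins CWP1 (0.65) and TIR3 (0.72). UTR2 stood at 806, 736 and 771 CPM in K14R, against 467, 537 and 478 CPM in K56R. Its pseudo-wild-type libraries ranged from 750 to 856 CPM, overlapping the K14R libraries and above the K56R libraries. Against the pseudo-wild-type, 3 members of the list were called higher and 12 lower in K14R, and 1 higher and 12 lower in K56R. YGP1 (-0.68), a glycoprotein that is also in the stress-induced list, CCW14 (-0.40), PIR3 (-0.36) and, on chromosome X, KRE9 (-0.33) fell. Of 33 nuclear pore genes, 2 rose and none fell (6.06% called, against 7.98% of all genes and 2.42% for the higher direction). They were GLE1 (0.72) and GLE2 (0.48), both of messenger RNA export. GLE1 stood at 71.8, 68.6 and 92.6 CPM in K14R, against 47.6, 46.6 and 46.7 CPM in K56R. Purine and one-carbon synthesis had 3 members higher and none lower of 21 (14.3% called): ADE1 (0.46), ADE13 (0.36) and the glycine cleavage subunit GCV3 (0.49).

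Smaller counts came from the remaining lists. Of 27 meiosis and sporulation genes, 5 fell and none rose (18.5% called, against 7.98% of all genes). Among them were the translational repressor RIM4 (68.6 ± 3.25 CPM in K14R and 140 ± 11.2 CPM in K56R, SD, n = 3 each) and the regulator NDT80 (-1.10). Of 60 DNA damage genes, 4 fell and none rose (6.67% called, near the 7.98% of all genes), among them the ribonucleotide reductase subunit RNR2 on chromosome X (-0.58), DDI1 (-0.51) and the glycosylase MAG1 (-0.53). DDI1 and MAG1 are neighbours that share a promoter region. Of 73 subtelomeric genes, 12 fell and 2 rose (19.2%). Of 106 genes of at least 4500 coding bases 6 fell and 1 rose (6.6%), and of 31 chaperones 1 rose and 2 fell (9.68%), both near the share over all genes. With the 2 slopes per library described further on, 19 of the long genes fell and 1 rose. Of 130 cytosolic ribosomal protein genes, RPS14B on chromosome X alone passed (-0.55), and their median was 0.02 between the 2 mutants, at -0.41 in K14R and -0.43 in K56R against the pseudo-wild-type. The inositol list had 1 member higher and 1 lower of 24 (8.33% called), and the ergosterol list 1 lower of 29 (3.45%). The list of a-specific and other mating genes had 1 lower of 23 (4.35%), AFB1 (-0.93), which is not an a-specific gene. No member passed among 39 G1/S genes (edgeR, 7 higher and 4 lower at an unadjusted p under 0.05; DESeq2, 3 higher), 31 G2/M genes (4 higher and 0 lower unadjusted; DESeq2, 0) or 30 coiled-coil tethers and motors (5 higher and 0 lower unadjusted; DESeq2, 0).

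**Figure D2:**
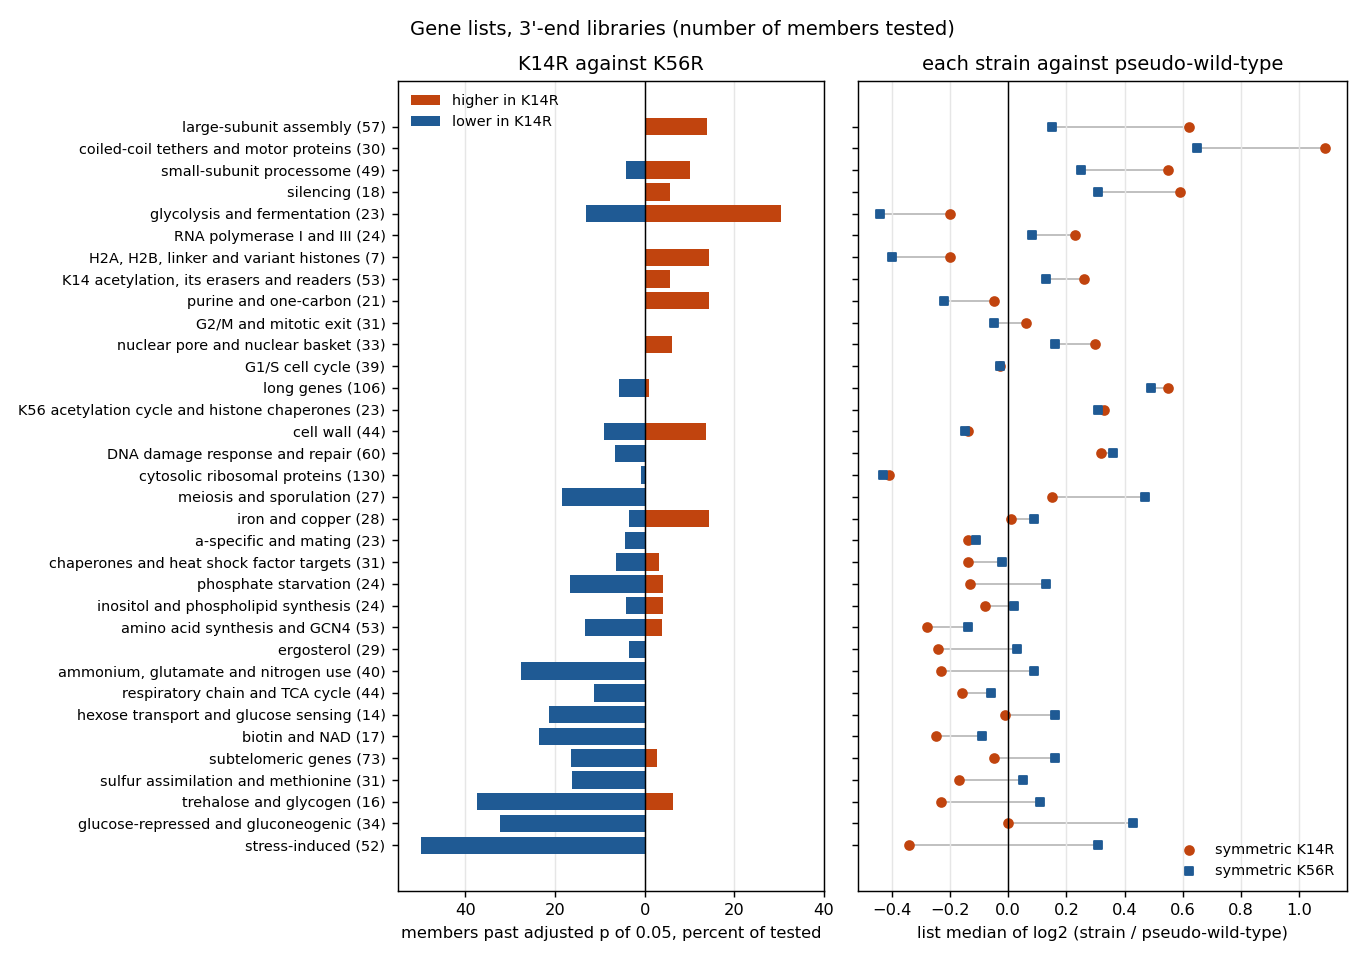
Left, percent of the tested members of each gene list called higher or lower in symmetric K14R than in symmetric K56R; right, each list's median log2 fold change of K14R and of K56R over the pseudo-wild-type. Stress-induced genes (26 of 52 lower), trehalose and glycogen genes (6 of 16) and glucose-repressed genes (11 of 34) extend furthest on the lower side, and glycolysis (7 of 23 higher) furthest on the higher side.

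LEU2, the marker of the plasmid that carries one of the H3 forms, differed as well. LEU2 (YCL018W), whose count can hold reads of the mutant chromosomal allele as well, stood at 169, 204 and 178 CPM in K14R, against 432, 435 and 409 CPM in K56R (log2 fold change -1.21 ± 0.17, edgeR adjusted p = 3.52e-05), and the pseudo-wild-type ranged from 269 to 379 CPM, between the 2 mutants. TRP1, the marker of the other plasmid, averaged 184 ± 3.58 CPM in K14R and 254 ± 5.07 CPM in K56R (SD, n = 3 each; -0.47, edgeR adjusted p = 0.0992). HHT2, the H3 gene that the labels name on both plasmids, stood at 3510, 3290 and 3210 CPM in K14R, against 4560, 4460 and 4210 CPM in K56R, and did not pass (-0.40 ± 0.17, edgeR adjusted p = 0.143). HHF2, the H4 gene, was at -0.20 (edgeR adjusted p = 0.479). Plasmid number was not measured, and its part in these values was not tested.

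The position of each mutant relative to the pseudo-wild-type was read from the same libraries. Against those 6 libraries, 1796 genes passed for K14R (36.2%; 1012 higher, 784 lower) and 1185 for K56R (23.9%; 663 higher, 522 lower). Both counts share the same 6 libraries. Of the 698 genes called in both, 21 were below the pseudo-wild-type in K14R and above it in K56R, and 2 were the other way round. The largest differences of this kind were in GAD1, TFS1, NQM1 (a transaldolase relative), PHO5, LOH1 (on chromosome X) and UGA1. TFS1 stood at 64.8, 90.8 and 56.1 CPM in K14R, against 158, 163 and 150 CPM in K56R, with 90.2 to 120 CPM in the pseudo-wild-type. It was at -0.53 in K14R (edgeR adjusted p = 0.00848) and at 0.62 in K56R (edgeR adjusted p = 0.00345) relative to the pseudo-wild-type. UGA1 was at -0.57 in K14R and 0.36 in K56R on the same scale. With the 2 slopes per library in the fit, 46 genes passed for K14R and 735 for K56R against the pseudo-wild-type. The part of library composition in these counts was not tested further. Leaving out K14R replicate 5 left 1113 genes for K14R. Leaving out K56R replicate 3, 4 or 5 left 732 (362 higher, 370 lower), 711 (344 higher, 367 lower) or 539 (252 higher, 287 lower) genes for K56R, so its excess of higher genes did not hold without any one of them.

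**Figure D3:**
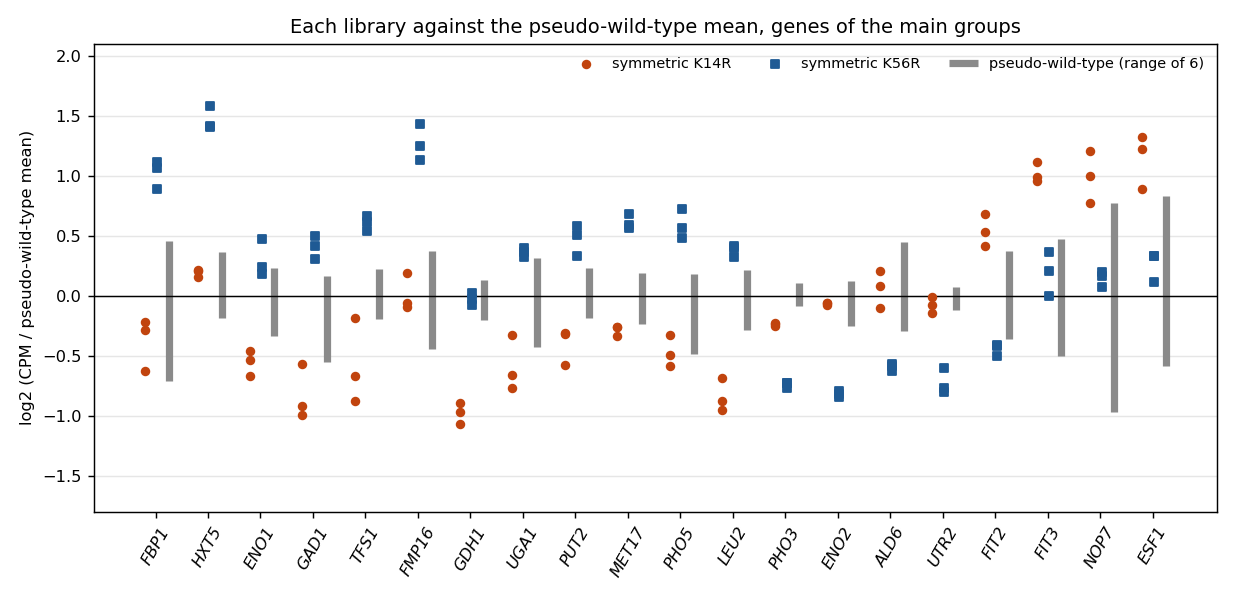
Log2 ratio of each symmetric K14R and symmetric K56R library to the mean of the pseudo-wild-type, for genes of the groups described; bars are the range of the 6 pseudo-wild-type libraries. GAD1 lies below 0 in K14R and above it in K56R (edgeR log2 fold changes -0.81 and 0.42), HXT5 stands near 0 in K14R and high in K56R (0.19 and 1.47), and GDH1 stands low in K14R and near 0 in K56R (-0.97 and -0.02).

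The asymmetric strains, with the substitution on either H3 form alone, gave 12 further libraries of the same 2 substitutions that share none with the symmetric comparison. Between asymmetric K14R and asymmetric K56R, 397 of 4961 genes passed (8%), 128 higher and 269 lower in K14R. Of the 120 genes higher in symmetric K14R, 115 (95.8%) had the same sign in the asymmetric comparison, where 53.5% of all genes were positive. Their median log2 fold change was 0.23 there. Genes of both directions were chosen by their symmetric values, which alone favours smaller asymmetric values. Of the 276 genes lower in symmetric K14R, 264 (95.7%) had the same sign, where 46.5% of all genes were negative, with a median of -0.30. Genes called in both comparisons in the same direction numbered 38 (31.7% of the 120 and 38 of the 128) and 115 (41.7% of the 276 and 115 of the 269), and none was called in opposite directions. Asymmetric K56R on the TRP1 plasmid form (H3X) stood higher over chromosome III, at a median of 0.81 to 0.88 log2 units from the batch median, and without that chromosome 268 genes passed. With chromosomes III and X left out, the shares of the same sign were 97.4% and 97.8%. Between the strains that carried the substitution on the other form alone (H3Y, 3 libraries each), 17 genes passed, all of them lower in K14R. Of the genes called in the symmetric comparison, 0 of the 120 and 13 of the 276 were among them, and 92.5% and 95.7% had the same sign, against 50.0% of all genes in each direction.

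Named genes called in both comparisons were ranked by the symmetric fold change alone. The largest falls by that ranking were in SNA3, FBP1, GPG1, HXT5, FMP16 and DPA10. The largest rises were in FIT2, FIT3, ENO2, RRP8 (an rRNA methyltransferase), ALD6 and RSA1 (a ribosome and snoRNP assembly factor). Other genes called in both changed more than some of these in the asymmetric comparison. GPG1 (YGL121C, chrVII:280777-281157, minus strand), a protein that binds the G protein subunit Gpa2 of glucose signalling, stood at 29.8, 28.0 and 23.7 CPM in symmetric K14R, against 70.8, 65.0 and 78.4 CPM in symmetric K56R (log2 fold change -1.39 ± 0.19, edgeR adjusted p = 3.52e-05). Its asymmetric log2 fold change was -1.03 (edgeR adjusted p = 1.22e-05). For HXT5 the asymmetric value was -0.57 (edgeR adjusted p = 0.00155), for ENO2 it was 0.40 (edgeR adjusted p = 0.00188), and for PHO5 it was -0.60 (edgeR adjusted p = 0.000628). By contrast, SOL4 was at -0.01 in the asymmetric comparison (edgeR adjusted p = 0.993), PNC1 at -0.04 and NTH1 at -0.09. Of the stress-induced list, 10 of 52 fell and 1 rose in asymmetric K14R, with a median of -0.21. The glucose-repressed list had 12 of 34 lower and 1 higher, with a median of -0.29.

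The difference between the symmetric and asymmetric fold changes was tested in the same fit. No gene passed (0%; edgeR, 357 at an unadjusted p under 0.05), while DESeq2 called 29 and the fit with library slopes called 88. For SOL4, the log2 fold change was -1.38 ± 0.28 in the symmetric and -0.01 in the asymmetric comparison, and no difference of this size passed the adjustment. Leaving out K56R_H3Y replicate 5 gave 16 genes, and leaving out any other library gave 0 to 4.

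**Figure D4:**
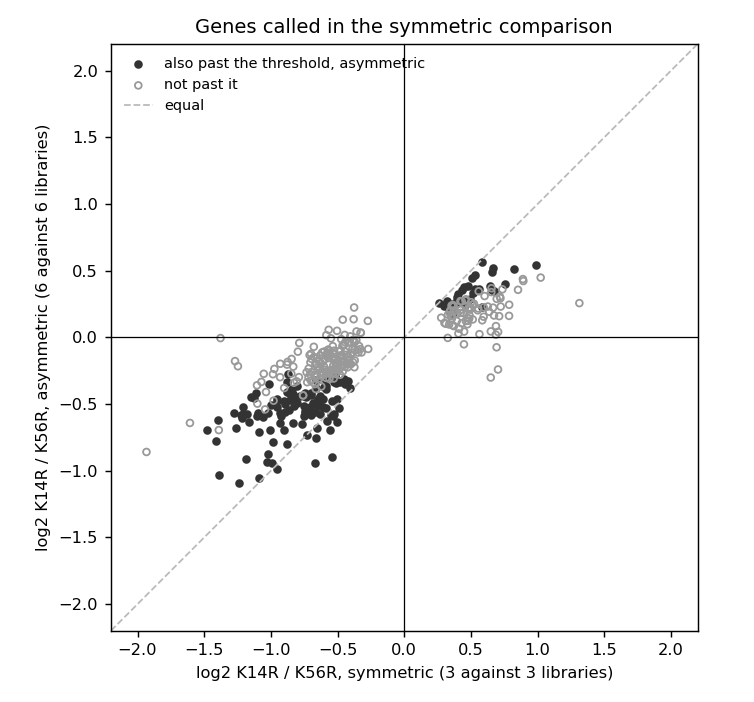
Log2 fold change of K14R over K56R in the symmetric libraries (horizontal) against that in the asymmetric libraries (vertical), for genes called in the symmetric comparison. Filled points also passed the threshold in the asymmetric comparison, open points did not, and the dashed line marks equal values. Of the genes shown, 115 of 120 and 264 of 276 have the same sign on both axes, and most lie closer to 0 on the vertical axis. The genes were chosen by their horizontal values, which alone favours smaller vertical values.

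Full-length libraries of the same 2 substitutions, 2 for each, were a further set that shares no library with the 3'-end comparison. They came from sequencing batches 2 and 7 for K14R and 4 and 7 for K56R, and 976 of 6376 genes passed (15.3%; 681 higher, 295 lower) with batch in the fit. K14R replicate 2 stood apart from the other full-length libraries, with a standard deviation of log2 differences from the median library of 1.2, against 0.26 for K14R replicate 1. The edgeR count was 5 without it (1 higher, 4 lower), 2883 without K14R replicate 1 (1323 higher, 1560 lower), 491 without K56R replicate 1 (242 higher, 249 lower) and 0 without K56R replicate 2, where 963 genes had an unadjusted p under 0.05. With K14R replicate 2 kept, 60% of the 120 genes higher and 57.8% of the genes lower in symmetric 3'-end K14R had the same sign in the full-length fold changes, against 46.2% and 53.8% of all genes. Genes called in the same direction numbered 32 and 46, and 6 of the genes lower in 3'-end K14R were called higher in full-length K14R. Without K14R replicate 2, the shares were 89.2% and 90.9%, against 50.1% and 49.9% of all genes, with the lone K14R library assumed to vary like the others. The stress-induced list had a full-length median of -0.35 with that library and -0.87 without it. The large-subunit assembly list changed sign with it, at -0.30 with the library and 0.23 without it.

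Libraries also differed in how expression related to the length of the coding sequence. The slope of log2 CPM, relative to the batch, on each doubling of coding length was 0.0967, 0.101 and 0.129 in the K14R libraries, against 0.0659, 0.0742 and 0.0827 in the K56R libraries. The groups did not overlap (difference 0.0344; exact two-sided permutation p = 0.1, the smallest that 3 against 3 libraries can give). In the pseudo-wild-type, the slope ranged from -0.171 to 0.0271, so both mutants lay above all 6 of its libraries. The slope on the A content of the coding sequence, from the same regression, averaged 0.0334 log2 units per percentage point in K14R and 0.00549 in K56R, with -0.0589 to 0.013 in the pseudo-wild-type. With both slopes as terms in the fit, 562 genes passed between the mutants (216 higher, 346 lower), and 311 of them were among the 396. Under that fit, 29 of 52 stress-induced genes fell, 13 of 34 glucose-repressed genes fell, and 11 of 23 glycolytic genes rose while 3 fell.

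**Figure D5:**
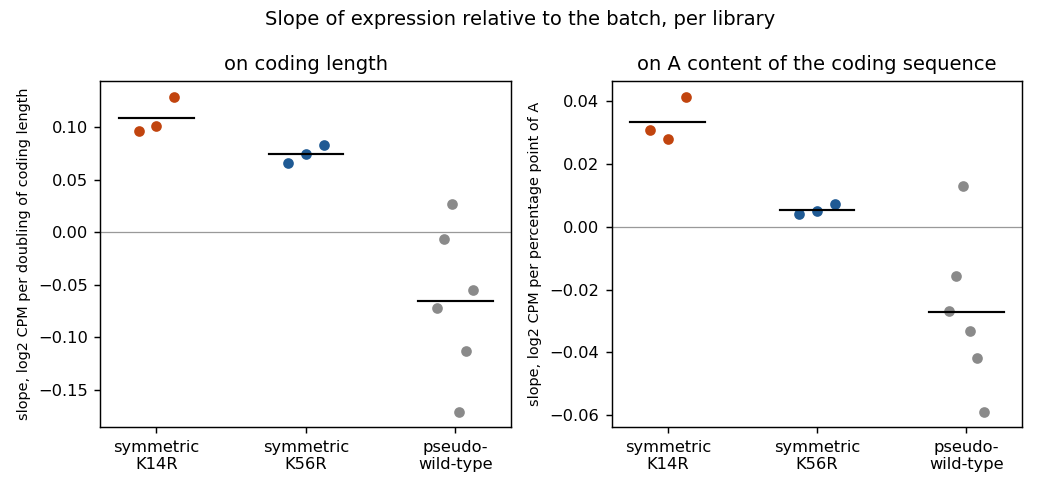
Slope of log2 expression on coding length (left) and on A content (right) in each symmetric K14R, symmetric K56R and pseudo-wild-type library; each point is 1 library. The K14R libraries (0.0967 to 0.129 for length) lie above the K56R libraries (0.0659 to 0.0827), and the pseudo-wild-type libraries (-0.171 to 0.0271) below both; lines are group means. For A content, 1 pseudo-wild-type library (0.013) lies above the K56R libraries.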

How the data were processed

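Polyadenylated RNA of yeast cultures was read from the 3' end after oligo-dT priming and tagmentation, with 12 PCR cycles and no molecular identifiers. The deposited files hold raw counts per transcript feature, made by the authors with featureCounts 1.4.6-p2 (reads on the same strand, mapping quality of at least 30), per the file headers; TopHat2 2.0.12, Bowtie2 and the sacCer3 build are named in the submitters' processing notes. Per the labels, the same sequencing batch (11) holds all 33 3'-end libraries used in the fit.

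Counts of 5013 features were analysed with edgeR 4.0.16 (R 4.3.3): filterByExpr left 4961 genes, libraries were scaled by TMM, and the quasi-likelihood test was fitted to all 33 libraries with a common estimate of spread (23 residual degrees of freedom). The K18R libraries of the batch entered that estimate. CPM are counts scaled to the TMM-adjusted library total. DESeq2 1.42.0 was an alternative. Full-length counts, deposited by the authors in the same unit, were fitted over 98 libraries with batch as a term. K14R and K56R libraries share replicate numbers, but the labels do not say that a number marks a shared culture or day, and same-numbered libraries did not all correlate above 0.1 in their deviations, so no block was used. Named genes had a standard symbol and at least 5 CPM on average over the 6 libraries. They were the 12 largest called changes each way with no overlap, and the 6 largest with opposite calls against the pseudo-wild-type. The 6 largest symmetric changes each way that the asymmetric comparison also called came from all called genes with no overlap. Up to 4 called members per list with the smallest p were added. Other list members are named because they were called, and were chosen after their values were seen. All gene lists, motifs and rules were chosen with earlier results of these data known. Gene coordinates come from RefSeq R64. The fits were tested on simulated counts with known changes. Fold changes of low counts are less precise, and p-values and ranges cover these libraries only. HIS3, ASG7 and MF(ALPHA)2 were not analysed here, and no mitochondrial or Ty feature was among those counted. A further called member of the DNA damage list is not reported here.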

Additional observations from a re-analysis of the deposited data

Results flagged for a closer look

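In 11 of the 123 named genes checked, 1 of the 6 pseudo-wild-type libraries stood far from the other 5, which chance gives in about 1 in 20 groups. The genes share the same 6 libraries, so the flags are not independent and their number cannot be set against that rate. Pseudo-wild-type replicate 16 was the outlying library for 6 of them. NOP56 had 1160 CPM there, against 682 to 799 CPM in the other 5, IMP3 had 93.6 CPM, against 56.8 to 67.1 CPM, and SSF1 had 91.6 CPM, against 57.8 to 65.2 CPM, all 3 being ribosome-assembly genes. In the same library GAD1 was low at 60 CPM, against 86.4 to 98.5 CPM, PNC1 at 631 CPM, against 840 to 927 CPM, and INO1 (on chromosome X) at 159 CPM, against 202 to 224 CPM. Replicate 17 was high for GPG1 (38.7 CPM, against 26.4 to 30.2 CPM), MET6 (242 CPM, against 178 to 194 CPM) and HHT2 (5200 CPM, against 3870 to 4370 CPM). Replicate 19 was high for HXT5 (42.1 CPM, against 28.8 to 32.8 CPM), and replicate 15 was low for PUT1 (100 CPM, against 117 to 126 CPM). These libraries do not enter the fold change of K14R over K56R, other than through the shared estimate of spread.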

How the results depend on the processing

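Between symmetric K14R and K56R, the count of 396 genes stayed within 1.5 times under DESeq2 (450; 178 higher, 272 lower), RLE scaling (387), both count filters, the library slopes (562) and, chosen after seeing the data, without chromosome X (351). It moved to 1375 (672 higher, 703 lower) with the 6 libraries fitted alone, where the biological coefficient of variation was 0.062 instead of 0.132, to 213 with K56R replicates 3 and 4 summed, and to 174 to 259 without 1 library. The asymmetric count of 397 moved to 17 in the H3Y strains alone and to 745 with library slopes, and ranged from 275 to 432 without 1 library. The symmetric minus asymmetric difference moved from 0 genes to 29 with DESeq2 and 88 with library slopes, and to 0 to 16 without 1 library. Against the pseudo-wild-type, library slopes gave 46 genes for K14R and 735 for K56R, and leaving out 1 library gave 1113 to 1459 and 539 to 732. The full-length count of 976 ranged from 0 to 2883 without 1 library. The causes were not tested. The slope difference ranged from 0.0244 to 0.0404. The balance of higher and lower calls turned without K56R replicates 3, 4 or 5 against the pseudo-wild-type and without K14R replicate 1 or 2 or K56R replicate 1 in full-length data. Of 111 named genes called, all kept their side with the 6 libraries alone, 110 with DESeq2, 94 with library slopes, 78 with the summed libraries and 68 to 78 without 1 library.

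With the replicate number as a block, 342 symmetric (94 higher, 248 lower) and 393 asymmetric genes passed, and 99 of the 111 named genes. Same-numbered K14R and K56R libraries correlated at 0.0233, 0.038 and 0.0635 in their deviations, each best with its own number, which is a hint from the data and not from the design; in the asymmetric strains they correlated at -0.137 to 0.379. Depth limits the lowest genes most, such as UGA4 at means of 1.36 CPM in K14R and 5.27 CPM in K56R.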

Other observations

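Chromosome X held 43 of the 396 called genes, of 298 tested there, with 1 higher and 42 lower in symmetric K14R and a median log2 fold change of -0.18. In the full-length libraries, genes left of position 540000 on that chromosome stood at a median of -0.02 and -0.22 log2 units from the median library in K14R replicates 1 and 2, and at -0.10 and 0.72 in K56R replicates 1 and 2. Chromosome copy number was not measured, and its part in these values was not tested. For minus-strand genes from position 130000 on, the 3'-end level per full-length level stood at a median of -1.45 on the log2 scale, against 0.04 for minus-strand genes of the other chromosomes.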
